A study of Arabidopsis thaliana with 8 samples.

Results

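The 10 genes described here encode small heat shock proteins of Arabidopsis thaliana. They are AT1G07400, AT1G53540, AT1G59860, AT2G29500, HSP17.4 (AT3G46230), HSP17.6II (AT5G12020), HSP17.6A (AT5G12030), ATHSP22.0 (AT4G10250), HSP23.6-MITO (AT4G25200) and HSP21 (AT4G27670). The genes were chosen by a list of their codes, drawn up with results of these data already known, including the difference between the genotypes under mock. Their levels and differences are therefore given as a description, without p-values, and nothing is read from how many of them passed a limit. They are 10 of the 36799 genes in the count table, and all 10 were among the 21614 genes that passed the filter on low counts.

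RNA was sequenced from whole 10-day-old seedlings in 8 libraries, 2 biological replicates for each of 4 groups. Col-0 is the wild type accession, and enap1-1enap2 is 1 double mutant line in the Col-0 background, which combines the CRISPR/Cas9 deletion enap1-1 in ENAP1 with enap2, T-DNA insertions in the first exon of ENAP2. ENAP1 and ENAP2 are histone-binding proteins. Seedlings of both genotypes stood for 4 h on filter paper soaked with liquid ½ MS medium (Mock) or with the same medium containing 25% PEG8000 (Dehydration), an osmotically active polymer that lowers the water potential around the roots. No library was heat treated, so that heat responses were not measured.

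Small heat shock proteins are ATP-independent chaperones built around the alpha-crystallin domain. They assemble into oligomers, hold unfolding proteins in a soluble state and hand them to the HSP70 and HSP101 machinery for refolding. Plants carry separate members for the cytosol, endoplasmic reticulum, mitochondrion and chloroplast. Their genes are typically silent in vegetative tissue at normal temperature and are switched on through heat shock elements, repeats of the letters GAA and TTC that bind heat shock factors.

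In the RefSeq annotation of TAIR10.1, ATHSP22.0 is a protein of the endomembrane system, HSP23.6-MITO is mitochondrial, HSP21 is chloroplastic and HSP17.6A is cytosolic, while AT1G07400, AT1G53540, AT1G59860 and AT2G29500 are named only as HSP20-like chaperones. The encoded proteins had between 153 and 227 residues. AT1G07400, AT1G53540, AT1G59860, AT2G29500 and HSP17.4 formed the most alike group, with identities between 67.8% and 94.8% in pairwise alignments, and no more than 52.6% to any other member. AT1G07400 and AT1G59860 shared 94.8% of aligned residues, AT1G53540 and HSP17.4 shared 89.7%, and HSP17.6II and HSP17.6A shared 84.4%. The last pair are neighbours on the minus strand of chromosome 5, at chr5:3882231-3883111 and chr5:3883957-3884838, separated by 846 bases.

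The heat shock element letters shared by the 10 genes are shown first. The list was drawn up by protein family and not by a search of upstream letters. Genes of this family are typically switched on through these elements, so that a high share of members was likely beforehand. Some members are also close relatives with shared upstream letters, so that the 10 are not independent. The shares below are therefore a description. A 2-unit element was searched as GAANNTTC or TTCNNGAA and a 3-unit element as GAANNTTCNNGAA or TTCNNGAANNTTC, and since each form is its own reverse complement or is listed in both orders, both strands are covered. A 3-unit element contains 2 overlapping 2-unit elements. In the 500 bases before the start codon, at least 1 2-unit element was found in 10 of 10 members, against 33.9% of 27443 nuclear protein-coding genes. A 3-unit element was found in 3 members, AT1G53540, HSP17.4 and ATHSP22.0, against 1.20% of the genes. For each gene the element nearest to the start codon is printed within 30 bases, 5′ to 3′ on the gene's strand, taking a 3-unit element where there was one, with the element in capitals:
AT1G07400, chr1:2274983-2275012, plus strand: ggacccgtaaaTTCTAGAAgctctggagat
AT1G53540, chr1:19980238-19980267, plus strand: caacaccaGAAACTTCTTGAAagcacctga
AT1G59860, chr1:22031339-22031368, plus strand: atttgcctcatTTCTAGAAgctctggagat
AT2G29500, chr2:12633838-12633867, minus strand: gagaagctcgaGAAATTTCggttagtacct
HSP17.4 (AT3G46230), chr3:16984864-16984893, minus strand: agaaacctGAAATTTCAAGAAacttgcaga
HSP17.6II (AT5G12020), chr5:3883035-3883064, minus strand: gaccaagacgtTTCTCGAAcaatacggaag
HSP17.6A (AT5G12030), chr5:3884842-3884871, minus strand: gatcaagacgtTTCTCGAAcgttagagaag
ATHSP22.0 (AT4G10250), chr4:6370379-6370408, plus strand: aaagatatTTCAAGAAACTTCttcattctt
HSP23.6-MITO (AT4G25200), chr4:12916928-12916957, plus strand: ccacttctccaGAACATTCactcactgaca
HSP21 (AT4G27670), chr4:13819927-13819956, minus strand: actcagaactaGAATTTTCtaatcttcact
The capitals ended between 42 bases (HSP21) and 251 bases (AT1G53540) before the start codon. In AT1G07400 and AT1G59860 the printed stretches shared an identical run of 19 bases, which included the element, and in HSP17.6II and HSP17.6A they shared a run of 17 bases. A match of letters is not a tested binding site.

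**Figure D1:**
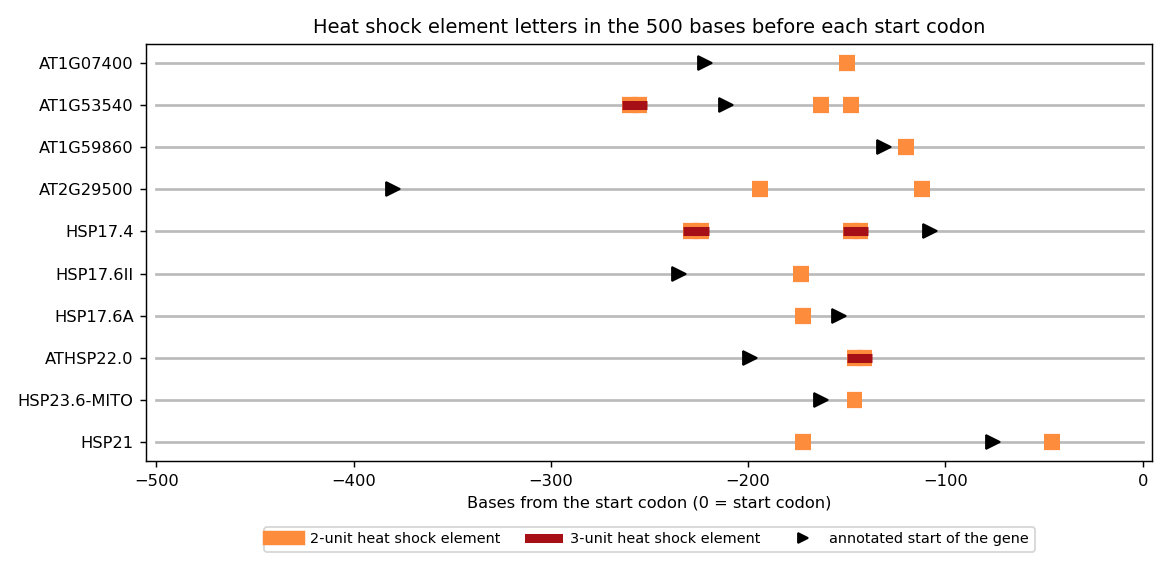
Positions of heat shock element letters in the 500 bases before the start codon of each of the 10 genes, with distance from the start codon in bases on the x axis, orange blocks for 2-unit elements, red blocks for 3-unit elements and arrowheads for the annotated start of each gene. Every gene holds at least 1 orange block, AT1G53540, HSP17.4 and ATHSP22.0 hold red blocks, and several blocks lie to the right of the arrowhead, within the annotated leader.

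Of the 10 elements printed, 7 lay within the annotated leader and 3 (in AT1G53540, HSP17.4 and HSP17.6A) before the annotated start. The annotated leaders were between 76 and 380 bases long, so that the 250 bases before the annotated start missed many of the elements. Of those 250 bases, 226 in AT1G07400, 140 in HSP17.6A and 77 in AT1G53540 lie in exons of other genes. In the 250-base windows 4 of 10 members held a 2-unit element, against 16.4% of 36630 genes, and 2 held a 3-unit element, against 0.385%. The ABRE core ACGTG (or CACGT), the element bound by factors of the abscisic acid response, was found in 5 members against 21.0% of genes, and the DRE core CCGAC (or GTCGG), bound by DREB factors, in 1 member against 11.9%. In the 500 bases before the start codon the ABRE core was found in 5 members against 34.9% of genes and the DRE core in 2 against 23.4%. The 250 bases before the annotated start are printed for HSP17.4, which held the most elements, and for ATHSP22.0 and HSP21, whose levels under dehydration are described below as higher in enap1-1enap2, with heat shock elements and ABRE cores in capitals:
HSP17.4, chr3:16984842-16985091, minus strand: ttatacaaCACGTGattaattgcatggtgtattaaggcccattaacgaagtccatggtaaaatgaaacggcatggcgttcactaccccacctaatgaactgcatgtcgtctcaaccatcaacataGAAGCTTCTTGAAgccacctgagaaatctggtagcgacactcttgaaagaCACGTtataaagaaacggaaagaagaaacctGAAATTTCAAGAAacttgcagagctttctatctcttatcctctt
ATHSP22.0, chr4:6370088-6370337, plus strand: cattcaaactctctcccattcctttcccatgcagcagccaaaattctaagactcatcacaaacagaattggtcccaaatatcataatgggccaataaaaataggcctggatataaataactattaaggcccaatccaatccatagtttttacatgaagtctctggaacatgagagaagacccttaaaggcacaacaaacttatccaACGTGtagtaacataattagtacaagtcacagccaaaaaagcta
HSP21, chr4:13819972-13820221, minus strand: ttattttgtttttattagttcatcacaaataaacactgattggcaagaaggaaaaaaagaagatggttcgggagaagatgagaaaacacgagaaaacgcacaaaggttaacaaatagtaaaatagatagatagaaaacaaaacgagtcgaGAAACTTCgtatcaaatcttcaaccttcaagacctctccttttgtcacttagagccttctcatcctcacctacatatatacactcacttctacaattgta
HSP17.4 held 2 3-unit elements and 3 ABRE cores, of which 2 overlap as the palindrome at the far end of the window. ATHSP22.0 held an ABRE core 40 bases before the annotated start and no heat shock element in this window, and HSP21 held a 2-unit element 93 bases before the annotated start and no ABRE core.

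Each library held between 24007691 and 48279415 counts assigned to genes, so that 3 counts, taken as the floor of detection, were worth between 0.0608 and 0.135 CPM, the unit of counts scaled to a common library size. Both mates of a read pair were counted, so that a fragment can be counted more than once. Intervals on counts treat each count as separate and leave out the spread between replicates, so that they are too narrow. As the check of the genotype, ENAP1 stood at 13.9 and 17.3 CPM in the Col-0 Mock libraries and at 3.81 and 5.11 CPM in enap1-1enap2 Mock (log2 fold change -1.83 ± 0.16 SE, adjusted p = 1.0e-05 in edgeR's quasi-likelihood test). ENAP2 stood at 9.32 and 7.76 against 3.10 and 3.51 CPM (log2 fold change -1.37 ± 0.20 SE, adjusted p = 7.5e-04 in the same test). The span of ENAP2, introns included, overlaps that of another gene. Under dehydration ENAP1 stood at 22.5 and 24.4 CPM in Col-0 and at 12.3 and 11.5 CPM in the mutant (-0.98 ± 0.14 SE, log2, edgeR adjusted p = 3.7e-04), and ENAP2 at 8.70 and 7.22 against 4.06 and 4.93 CPM (-0.83 ± 0.20 SE, edgeR adjusted p = 0.011), both under the limit of size used for calls below. Both transcripts were thus still counted in the mutant under both treatments. The 4 shoot markers (RBCS1A, RBCS3B, CA1, LHCB1.3) and the 4 root markers (PYK10, EXPA7, COBL9, CASP1) were present in every group, as whole seedlings imply, and none of the 8 was called between the genotypes under either treatment.

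Summed over the 10 genes and scaled by exon length, the level was 19.9 and 22.6 CPM per kb in the Col-0 Mock libraries, 38.0 and 41.9 in enap1-1enap2 Mock, 142.0 and 123.9 in Col-0 Dehydration, and 176.7 and 175.6 in enap1-1enap2 Dehydration. The 4 groups did not overlap, and the mutant lay above Col-0 under both treatments. Under mock AT2G29500 made up 50.4% of the sum in Col-0 and 29.0% in enap1-1enap2, while AT1G07400 made up 19.9% and 40.6%. Under dehydration AT1G07400 was the largest part in both genotypes, with shares of 43.5% (Col-0) and 34.3% (enap1-1enap2), and ATHSP22.0 took 8.69% in Col-0 and 18.3% in the mutant.

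**Figure D2:**
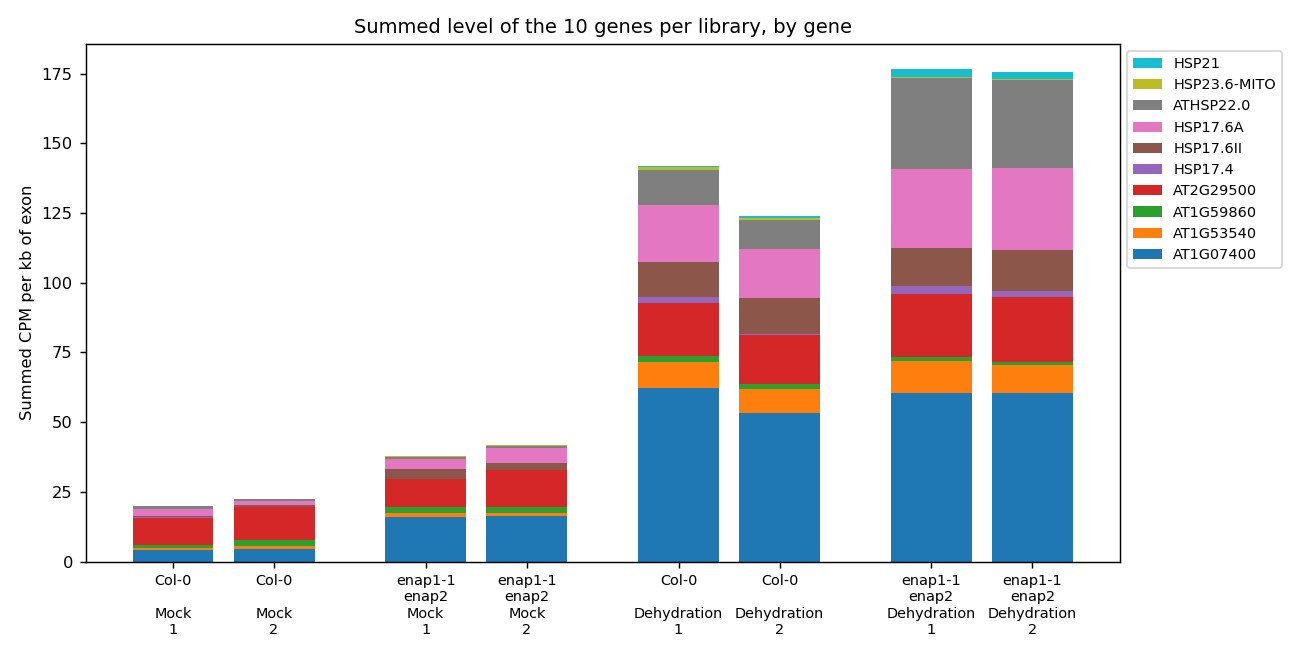
Summed level of the 10 genes in each of the 8 libraries, in CPM per kb of exon on the y axis, with 1 bar per library and 1 colour per gene. The enap1-1enap2 Mock bars (38.0 and 41.9) stand above the Col-0 Mock bars (19.9 and 22.6), mainly through AT1G07400 (blue), and the enap1-1enap2 Dehydration bars (176.7 and 175.6) carry a wider ATHSP22.0 block (grey) than the Col-0 Dehydration bars.

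The 4 groups gave 5 contrasts, all taken from 1 model over the 8 libraries. Following the limits of the study, a gene was called when its unadjusted p was under 0.01, its adjusted p under 0.05 and its log2 fold change above 1 or below -1, and for the difference between the responses (the interaction) at an adjusted p under 0.05. The contrasts share libraries, so that a gene that is high in 1 group moves 3 contrasts at once.

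AT1G07400 was the most abundant of the 3 genes called between the genotypes under mock. It stood at 3.45 and 3.81 CPM in Col-0 Mock and at 13.8 and 14 in enap1-1enap2 Mock, a log2 fold change of 1.93 ± 0.12 (SE). Under dehydration it stood at 53.6 and 45.6 CPM in Col-0 and at 51.7 and 51.9 CPM in enap1-1enap2. The mock groups were far apart and the dehydrated groups overlapped, so that the response to dehydration was smaller in the mutant (log2 fold change 1.90 ± 0.10 SE against 3.77 ± 0.12 in Col-0, an interaction of -1.87 ± 0.15). The mock level in the mutant was 28.0% of the dehydrated level in Col-0. Scaled by length, AT1G07400 was the most abundant of the 10 genes in every group but Col-0 Mock, where AT2G29500 was higher (10.7 against 4.23 CPM per kb, means of 2 libraries).

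HSP17.6II, a class II protein, followed the same order of groups at a lower level. It stood at 0.522 and 0.649 CPM in Col-0 Mock, 3.25 and 2.44 in enap1-1enap2 Mock, 11.2 and 11.3 CPM in Col-0 Dehydration, and 12 and 12.7 CPM in enap1-1enap2 Dehydration. The log2 fold change between the genotypes was 2.28 ± 0.24 (SE) under mock and 0.13 ± 0.18 under dehydration. No groups overlapped, but the dehydrated groups lay within 1 SE of each other in the model. The response to dehydration was 4.24 ± 0.23 (SE, log2) in Col-0 and 2.10 ± 0.19 in the mutant, with an interaction of -2.14 ± 0.30.

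HSP17.6A, its tandem neighbour, differed less under mock. It stood at 2.04 and 1.26 CPM in Col-0 Mock and at 2.99 and 4.69 in enap1-1enap2 Mock, a log2 fold change of 1.22 ± 0.24 (SE). This difference passed the limits with all 8 libraries but fell to 0.87 without Col-0 Mock replicate 2 and to 0.89 without enap1-1enap2 Mock replicate 2, below the limit of 1. Under dehydration it stood at 18.1 and 15.3 CPM in Col-0 and at 25.2 and 25.9 CPM in enap1-1enap2, a log2 fold change of 0.61 ± 0.18 (SE) that was under the limit of size. The mutant was above Col-0 under both treatments, without overlap, and the interaction of -0.61 ± 0.30 passed the limit only without Col-0 Mock replicate 1, at -0.96. Thus 2 neighbouring genes with 84.4% identical proteins differed in the dehydrated state, where HSP17.6II was nearly level between the genotypes and HSP17.6A was not, though the difference between these 2 genes was not itself tested.

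Under mock, 3 of the 10 members were thus called higher in enap1-1enap2 and 0 lower, while 0.389% of the 21614 genes were called higher and 0.953% lower. The median log2 fold change was 0.81 over the 10 members and 0.41 over the 7 with at least 10 counts in every library, against -0.01 over all genes tested. The genotype difference under mock was known when the genes were listed, and nothing is read from these counts. No root or shoot marker moved with it, and their summed levels under mock were between 2771.0 and 3110.5 CPM for root and between 25125.5 and 30370.1 CPM for shoot.

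**Figure D3:**
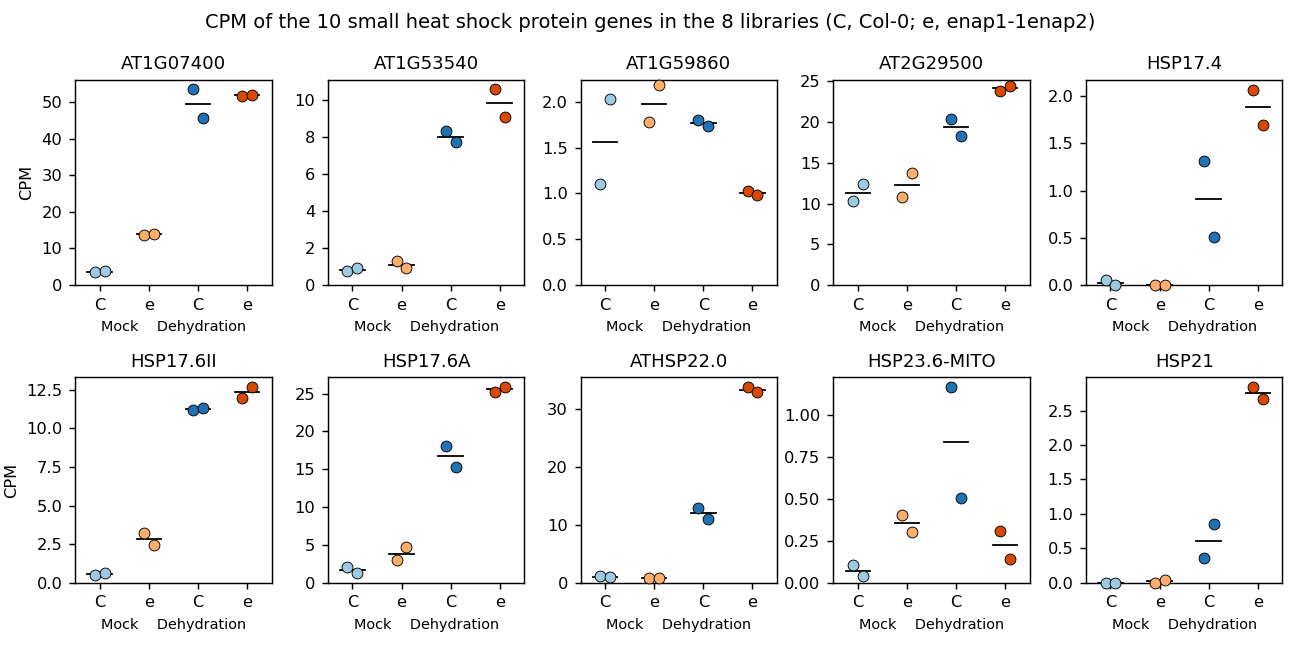
Levels of the 10 genes in the 8 libraries in CPM, with 1 panel per gene, each y axis starting at 0 with its own scale, points for the 2 libraries of each group (C for Col-0, e for enap1-1enap2) and a line at their mean. AT1G07400, HSP17.6II and HSP17.6A show the raised enap1-1enap2 Mock points, ATHSP22.0 and HSP21 show enap1-1enap2 Dehydration points far above the Col-0 Dehydration points, and the AT1G59860 panel shows no rise of the Dehydration points in enap1-1enap2.

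ATHSP22.0, the small heat shock protein of the endomembrane system, showed the opposite pattern. It stood at 1.10 and 0.973 CPM in Col-0 Mock and at 0.863 and 0.839 in enap1-1enap2 Mock, a log2 fold change of -0.27 ± 0.23 (SE). Under dehydration it stood at 13 and 11 CPM in Col-0 and at 33.9 and 33.0 CPM in enap1-1enap2, a log2 fold change of 1.48 ± 0.13. The genotypes were close under mock and 2.79 times apart under dehydration. The response was 3.53 ± 0.17 (SE, log2) in Col-0 and 5.29 ± 0.17 in the mutant, with an interaction of 1.75 ± 0.26, the only one of the 10 called in the positive direction.

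HSP21, the chloroplast protein, was close to undetected under mock. It had 0 and 0 counts in the Col-0 Mock libraries and 0 and 1 in enap1-1enap2 Mock, all under the floor, so that no fold is given between them. Under dehydration it had 8 and 20 counts (0.361 and 0.849 CPM) in Col-0 and 110 and 76 counts (2.84 and 2.67 CPM) in enap1-1enap2, a ratio of 4.56 and a log2 fold change of 2.17 ± 0.55 (SE). The dehydrated groups did not overlap. The call was lost without Col-0 Dehydration replicate 1 (log2 fold change 1.70), without enap1-1enap2 Dehydration replicate 1 (2.13) and without enap1-1enap2 Dehydration replicate 2 (2.22). Dehydration raised HSP21 at least 8.70-fold in Col-0, computed against the floor of 3 counts per library. In the mutant the rise was 181.8-fold. The 1 mock count leaves a counting interval of 32.2 to 7219.6 (95% level if each count is separate). These folds rest on different denominators and are not compared between the genotypes.

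Under dehydration, 2 of the 10 members were called higher in enap1-1enap2 and 0 lower, while 1.01% of all genes were called higher and 1.40% lower. Among the 7 members with at least 10 counts in every library the count was 1, ATHSP22.0. The median log2 fold change was 0.31 over the 10 members and 0.30 over the 7, against 0.01 over all genes. The summed shoot markers were lower in the mutant in this contrast, at 14912.7 and 16144.5 CPM against 20619.0 and 20171.7 CPM. CAB1 (LHCB1.3) stood at -0.58 and RBCS1A at -0.44 on the log2 scale (edgeR adjusted p = 0.0051 and 0.017), both under the limit of size. The other shoot markers were not lower, with CA1 at 0.29 and RBCS3B at 0.02 (edgeR adjusted p = 0.052 and 0.92). The summed root markers overlapped, at 1342.7 and 1038.2 against 1300.2 and 1178.3 CPM. PYK10 made up nearly all of this sum, at 1337.9 and 1034.1 against 1293.4 and 1171.2 CPM. On the log2 scale COBL9 stood at -0.96, CASP1 at -0.67, PYK10 at -0.06 and EXPA7 at 0.04. Their edgeR adjusted p was 0.23, 0.082, 0.8 and 0.97. The part of these shifts in the values above was not tested.

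For AT1G53540 and AT2G29500 the difference between the responses of the genotypes did not pass the limit. AT1G53540 stood at 0.731 and 0.932 CPM in Col-0 Mock, 1.27 and 0.916 in enap1-1enap2 Mock, 8.30 and 7.73 CPM in Col-0 Dehydration, and 10.6 and 9.08 CPM in enap1-1enap2 Dehydration. Its response was 3.25 ± 0.25 (SE, log2) in Col-0 and 3.14 ± 0.24 in the mutant, with an interaction of -0.11 ± 0.34. The mock groups overlapped, and the dehydrated mutant libraries were above the Col-0 ones by 0.30 ± 0.21 on the log2 scale.

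AT2G29500 was the member with the highest mock level in Col-0 and a small response. It stood at 10.3 and 12.4 CPM in Col-0 Mock, 10.8 and 13.7 in enap1-1enap2 Mock, 20.4 and 18.3 CPM in Col-0 Dehydration, and 23.8 and 24.5 CPM in enap1-1enap2 Dehydration. The log2 response was 0.77 ± 0.13 (SE) in Col-0 and 0.99 ± 0.13 in the mutant, both under the limit of 1. In the mutant it passed the limit without enap1-1enap2 Mock replicate 2 (1.15) or without enap1-1enap2 Dehydration replicate 1 (1.00), and scaling by library size alone gave 0.59 in Col-0 and 0.82 in the mutant.

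AT1G59860 was called in none of the 5 contrasts, although its protein is 94.8% identical to that of AT1G07400 and the printed stretch around its heat shock element shares 19 bases with it. It stood at 1.10 and 2.03 CPM in Col-0 Mock, 1.78 and 2.18 in enap1-1enap2 Mock, 1.80 and 1.74 CPM in Col-0 Dehydration, and 1.03 and 0.985 CPM in enap1-1enap2 Dehydration. The log2 response was 0.17 ± 0.37 (SE) in Col-0 and -0.96 ± 0.38 in the mutant, and neither passed the limits. AT1G07400 stood between 3.45 and 53.6 CPM over the same 8 libraries. Of the 31-base stretches in their exons 3.14% (AT1G07400) and 2.96% (AT1G59860) occur again in the genome, while 0 of the 100-base stretches do, so that reads were separable over most of both genes.

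HSP17.4 was detected almost only under dehydration. It had 2 and 0 counts in Col-0 Mock, 0 and 0 in enap1-1enap2 Mock, 29 and 12 counts (1.31 and 0.509 CPM) in Col-0 Dehydration, and 80 and 48 counts (2.07 and 1.69 CPM) in enap1-1enap2 Dehydration. The dehydrated mutant libraries were both above the Col-0 ones, by a log2 fold change of 1.05 ± 0.60 (SE) that did not pass the limits. Dehydration raised HSP17.4 39.3-fold in Col-0, with a counting interval of 10.2 to 335.3, and at least 19.7-fold in the mutant, computed against the floor of 3 counts per library. These folds, too, have different denominators and give no order of the genotypes. Its span overlaps those of 2 other genes, by 513 bases summed over both and with introns of these genes included. Counting without strand leaves out reads that fall on exons of more than 1 gene, so that its level is uncertain.

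HSP23.6-MITO, the mitochondrial protein, was the only member higher in Col-0 than in the mutant under dehydration by both libraries and a log2 fold change below -1. It had 4 and 2 counts in Col-0 Mock, 16 and 8 counts in enap1-1enap2 Mock, 26 and 12 counts in Col-0 Dehydration, and 12 and 4 counts in enap1-1enap2 Dehydration. The log2 fold change between the genotypes was 2.31 ± 0.89 (SE) under mock and -1.83 ± 0.75 under dehydration, and neither passed the limits. The response was 3.52 ± 0.85 (SE, log2) in Col-0 and -0.62 ± 0.78 in the mutant, with an interaction of -4.15 ± 1.16. With at most 26 counts in a library these values are imprecise, and the interaction passed the limit in edgeR with all libraries but not in DESeq2. It was also lost without Col-0 Mock replicate 2, enap1-1enap2 Mock replicate 1 or 2, Col-0 Dehydration replicate 1 or enap1-1enap2 Dehydration replicate 2, with log2 differences between -4.87 and -3.43 over the 8 libraries left out in turn. The Col-0 response lost its call without Col-0 Mock replicate 2 (log2 fold change 2.95) or Col-0 Dehydration replicate 1 (2.80).

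**Figure D4:**
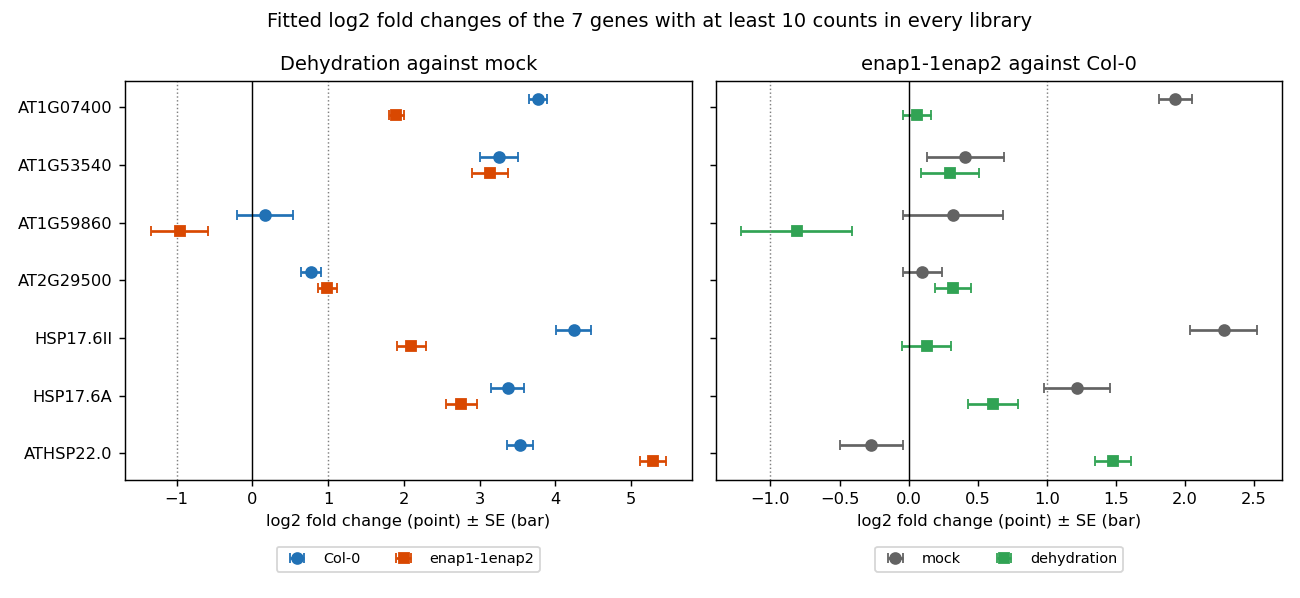
Fitted log2 fold changes of the 7 genes with at least 10 counts in every library, with points for the fitted value and bars for 1 SE. In the left panel (dehydration against mock) AT1G07400 and HSP17.6II lie lower in enap1-1enap2 than in Col-0 and ATHSP22.0 lies higher, and in the right panel (enap1-1enap2 against Col-0) the mock points of AT1G07400, HSP17.6II and HSP17.6A and the dehydration point of ATHSP22.0 lie beyond the dotted line at 1.

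Dehydration raised 8 of the 10 members past the limits in Col-0 and 0 fell, against 10.0% of all genes called higher and 11.7% lower. In enap1-1enap2 7 rose and 0 fell, against 12.6% of all genes called higher and 14.1% lower. HSP17.4 and HSP21 passed the filter on low counts through dehydrated libraries, and HSP23.6-MITO had under 10 counts in some libraries. Without HSP17.4, HSP21 and HSP23.6-MITO, 5 of 7 members were called higher in each genotype. The median log2 response over the 10 members was 3.53 in Col-0 and 2.43 in the mutant (3.45 and 2.43 with members at 0 under mock set to their bound), against -0.03 and -0.01 over all genes. The difference between the responses was called positive for 1 member and negative for 3 (1 and 2 of the 7), against 8.07% and 8.76% of all genes, with a median of -0.39 over the 10 members, -0.61 over the 7 and 0.01 over all genes. The 2 responses have no library in common, but each shares its libraries with the contrasts between the genotypes.

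The marker genes also moved with dehydration. All 4 root markers were called lower in both genotypes, and their summed level went from between 2771.0 and 3110.5 CPM under mock to between 1038.2 and 1342.7 CPM under dehydration. This sum was nearly all PYK10. In Col-0 the falls were 2.22-fold for PYK10, 3.96-fold for CASP1, 17.9-fold for COBL9 and 32.2-fold for EXPA7. The summed shoot markers went from between 25125.5 and 30370.1 CPM to between 14912.7 and 20619.0 CPM, with 1 of the 4 called lower in each genotype. In whole seedlings, fewer cells of a type and less RNA per cell cannot be told apart, and the part of these shifts in the dehydration results was not tested.

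Over the 8 libraries, the correlation of each member's log2(CPM + 1) with the mean standardised profile of the 10 was between 0.935 and 0.980 for AT1G07400, AT1G53540, AT2G29500, HSP17.6II, HSP17.6A and ATHSP22.0. It was 0.912 for HSP17.4, 0.805 for HSP21, 0.559 for HSP23.6-MITO and -0.311 for AT1G59860. The 5 other genes with the most similar profile, at a mean of at least 1 CPM, were BIR1 (AT5G48380, Pearson r = 0.995), AT3G05350 (0.995), AT2G20330 (0.994), AT5G09390 (0.994) and AT4G34450 (0.994). The profile is a mean that includes each member itself, which raises the values of the members but not those of the other genes. All of these correlations are descriptions over 8 libraries in 4 groups, which share the treatment.

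The other HSP20 family genes gave the wider setting. They were 9 genes listed by family, all of which passed the filter, and they are tested over all 21614 genes with edgeR's quasi-likelihood test and Benjamini-Hochberg adjustment. This list and the wider lists below were, like the members, chosen with earlier results of these data known. Their p-values and counts are therefore a description and not independent evidence. Under mock 1 of the 9 was higher in enap1-1enap2 and 1 lower, against 0.389% and 0.953% of all genes. AT5G51440 stood at 10.3 and 14.7 CPM in Col-0 Mock and at 28.0 and 28.5 in enap1-1enap2 Mock, close to its 31.3 and 26.9 CPM in Col-0 Dehydration (log2 fold change between the genotypes under mock 1.17 ± 0.14 SE, edgeR adjusted p = 1.5e-04). AT1G52560 fell from 8.95 and 7.86 to 4.26 and 3.82 CPM in the mutant under mock (-1.04 ± 0.12 SE, edgeR adjusted p = 1.5e-04). The median over the 9 genes was -0.16.

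Under dehydration 2 of the 9 were higher in the mutant and 0 lower, against 1.01% and 1.40% of all genes. HSP18.2, a cytosolic small heat shock protein, stood at 7.17 and 6.28 CPM in Col-0 and at 15.2 and 14.1 CPM in enap1-1enap2 (log2 fold change 1.13 ± 0.21 SE, edgeR adjusted p = 0.0019). AT5G37670 stood at 2.07 and 1.70 against 3.85 and 4.93 CPM (1.21 ± 0.30 SE, edgeR adjusted p = 0.012). AT1G52560 and AT2G19310 were higher by 0.58 ± 0.09 and 0.69 ± 0.09 (SE, log2), at edgeR adjusted p = 7.7e-04 and 1.8e-04, under the limit of size. The remaining 5 lay between -0.04 and 0.34 on the log2 scale.

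Dehydration raised 3 of the 9 in Col-0 and lowered 1, against 10.0% and 11.7% of all genes. In enap1-1enap2 it raised 4 and lowered 1, against 12.6% and 14.1% of all genes. AT1G52560 had the largest response of the 9, 2.55 ± 0.11 (SE, log2) in Col-0 and 4.17 ± 0.12 in the mutant, and AT4G21870 fell in both (-1.58 ± 0.19 and -1.84 ± 0.18). The interaction was positive for AT1G52560 (1.63 ± 0.16 SE, edgeR adjusted p = 1.4e-05), AT5G37670 (1.63 ± 0.43, 0.016), HSP18.2 (1.35 ± 0.31, 0.0083) and AT2G19310 (0.70 ± 0.13, 0.002), and negative for AT5G51440 (-1.14 ± 0.19, 0.001). AT1G54050, AT4G21870, AT5G47600 and AT5G54660 gave interactions between -0.27 and 0.64 that did not pass the limit. The interaction was called positive for 8.07% and negative for 8.76% of all genes.

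**Figure D5:**
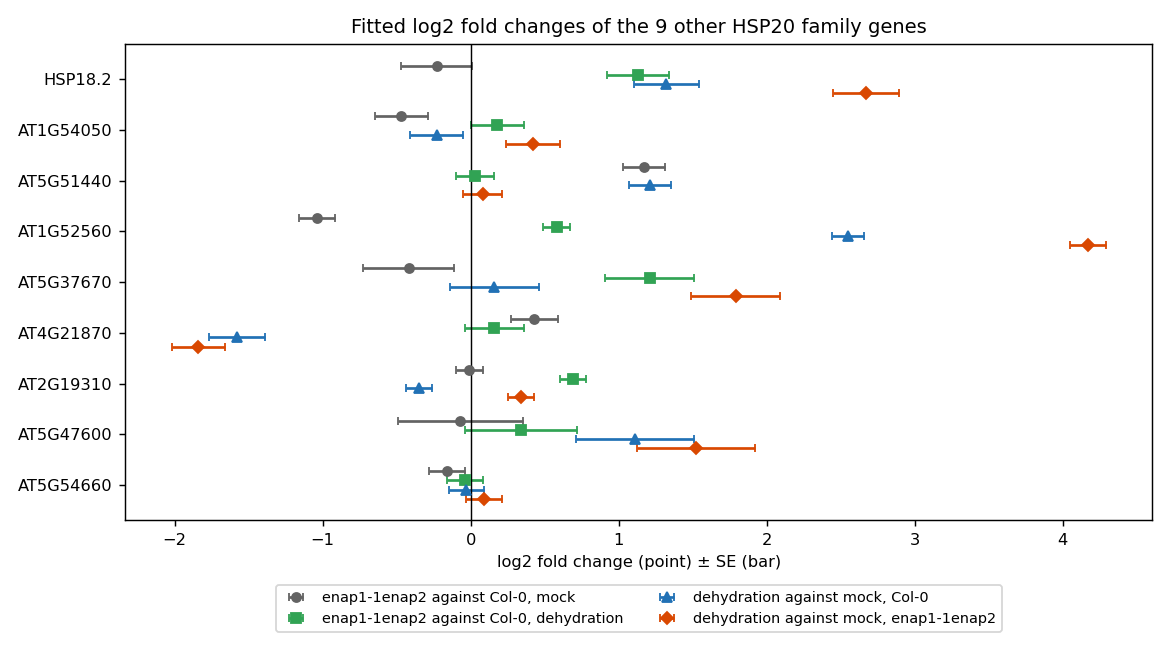
Fitted log2 fold changes of the 9 other HSP20 family genes on the x axis, with 4 contrasts per gene as points and 1 SE as bars. AT5G51440 and AT1G52560 lie on opposite sides of 0 in the mock contrast between the genotypes (grey circles), and HSP18.2 and AT5G37670 lie to the right of 1 in the dehydration contrast between the genotypes (green squares).

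Among the wider heat shock lists, as over all genes, more genes were called with dehydration than between the genotypes. Over 7 lists (the 9 HSP20 genes, HSP100, HSP90, HSP70, HSP60, heat shock factors and other heat-responsive genes) 68 genes were tested. In Col-0, 27 rose and 3 fell with dehydration (39.71% and 4.41%), against 10.0% and 11.7% of all genes. In enap1-1enap2, 26 rose and 9 fell (38.24% and 13.24%), against 12.6% and 14.1% of all genes. Between the genotypes 4 were higher and 1 lower in the mutant under mock, and 5 higher and 0 lower under dehydration, against the shares of all genes given above. Of 18 heat shock factors tested 8 rose with dehydration in each genotype and 0 fell, and of 13 other heat-responsive genes 11 rose in Col-0 and 9 in the mutant. None of the 7 HSP90 genes rose in either genotype, and 3 of them fell in enap1-1enap2, and of 5 HSP60 chaperonins 1 fell in Col-0 and 3 in the mutant. The interaction was called negative for 3 of the HSP90 genes, 5 of 13 HSP70 genes and 3 of the HSP60 genes, and positive for 0 of them. It was positive for 4 of the heat shock factors and negative for 0, and positive for 3 and negative for 3 of the other heat-responsive genes. Over all 68 genes it was positive for 11 and negative for 16, against 8.07% and 8.76% of all genes.

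HSFA2, the heat shock factor that sustains small heat shock protein expression after heat, stood at 3.60 and 3.97 CPM in Col-0 Mock, 5.94 and 5.72 in enap1-1enap2 Mock, 19.7 and 19.8 CPM in Col-0 Dehydration and 24 and 20.7 CPM in enap1-1enap2 Dehydration. It rose with dehydration in both genotypes, by 2.38 ± 0.14 (SE, log2) in Col-0 and 1.94 ± 0.13 in the mutant, and its mock difference of 0.62 ± 0.14 (edgeR adjusted p = 0.016) was under the limit of size. HSP101, the disaggregase that works with small heat shock proteins, gave a mock difference of 0.61 ± 0.09 (SE, log2, edgeR adjusted p = 0.0012), also under the limit of size, and a smaller response in the mutant (1.42 ± 0.09 against 1.97 ± 0.09, interaction -0.54 ± 0.13, edgeR adjusted p = 0.0096). HSP70-4, a cytosolic HSP70, rose in Col-0 and the mutant (1.99 ± 0.09 and 2.16 ± 0.09 SE, log2, interaction 0.17 ± 0.13), and HSP90.1 moved by 0.10 ± 0.13 and 0.16 ± 0.13, under the limit.

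Outside the HSP20 family, 3 listed genes were called between the genotypes under mock, all higher in the mutant. BIP3, an HSP70 of the endoplasmic reticulum induced by unfolded proteins, stood at 0.365 and 0.405 CPM in Col-0 Mock and at 3.12 and 2.37 CPM in enap1-1enap2 Mock (log2 fold change 2.82 ± 0.43 SE, edgeR adjusted p = 0.0011). ROF2, an FKBP-type peptidyl-prolyl isomerase, gave 1.14 ± 0.11 (edgeR adjusted p = 3.0e-05) and DREB2C, a DNA-binding factor of the DREB group, gave 1.03 ± 0.12 (1.3e-04).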

How the data were processed

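The authors trimmed the reads with Trim Galore 0.6.7, aligned them to TAIR10 and assigned them to genes with featureCounts of Subread 2.0.1, and they deposited raw counts per gene for 8 libraries. The header of the count table names unstranded counting over exons, and its alignment files carry STAR's default names, whereas the methods name bowtie2. Exon lengths came from the same table. Each column was assigned to its sample through genotype, treatment and replicate number.

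Counts were fitted with edgeR 4.0.16 (limma 3.58.1, R 4.3.3): filterByExpr by group, TMM scaling, 1 mean per group over all 8 libraries, quasi-likelihood tests, and Benjamini-Hochberg adjustment over 21614 genes. Standard errors are the log2 fold change over the square root of the F statistic. CPM uses TMM-scaled library sizes. The steps were tested on simulated data. The labels do not say whether replicates were grown apart, so that p-values measure the spread between these samples.

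The members and the gene lists were chosen with earlier results of these data known. Named are all 10 members, the 9 other HSP20 genes, ENAP1, ENAP2, listed genes called between the genotypes under mock (at most 5 per list), HSFA2, HSP101, HSP70-4, HSP90.1 and the 5 genes most alike. The lists were the other HSP20 genes, HSP100, HSP90, HSP70, HSP60, heat shock factors, other heat-responsive genes and shoot and root markers.

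Sequences, gene names and proteins came from RefSeq for TAIR10.1. All 92 listed genes were found by locus tag, and of 36632 nuclear genes found there 99.5% had the start and end of the count table, as had 9 of the members. Proteins were aligned globally with Biopython 1.88 in Python 3.11.15, and identity is over positions where both have a residue. Alternatives were RLE, upper quartile and no scaling, DESeq2 1.42.0, other filters and limits, 4-library fits, a replicate block and omission of single libraries.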

Additional observations from a re-analysis of the deposited data

Results flagged for a closer look

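Among the 28 genes screened by name, the response to dehydration differed between the genotypes (interaction at an edgeR adjusted p under 0.05) for 14, and values are log2 differences, enap1-1enap2 minus Col-0. Of the 10 small heat shock protein genes, 4 were among them, given without a p because they were listed with results known. Over all genes 8.07% were called positive and 8.76% negative. Some of the 28 were named because they were called under mock, and that contrast shares its mock libraries with the interaction. ATHSP22.0 gave 1.75, AT1G07400 gave -1.87, HSP17.6II gave -2.14 and HSP23.6-MITO gave -4.15, the last on at most 26 counts in a library.

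The other 10 were 5 with a positive and 5 with a negative difference. Positive were AT1G52560 (1.63), AT5G37670 (1.63), HSP18.2 (1.35), ENAP1 (0.85) and AT2G19310 (0.70). Negative were BIP3 (-2.28), DREB2C (-1.67), AT5G51440 (-1.14), ROF2 (-0.89) and HSP101 (-0.54). ENAP1 is itself disrupted in the mutant. Groups of 2 libraries allow no search for single libraries that stand apart.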

How the results depend on the processing

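The 3 members called under mock, the 8 and 7 called with dehydration and the 4 with differing responses stayed within 1.5 times their count under every alternative run. The count of 2 under dehydration between the genotypes became 1 at a log2 limit of 1.5, and lay between 1 and 2 when single libraries were left out. The total counts over the 7 related lists stayed within 1.5 times under all 7 alternatives, while their split with dehydration became 24 higher and 6 lower in Col-0 (27 and 3 with TMM) and 23 and 12 in enap1-1enap2 (26 and 9) under upper quartile scaling or library size alone. With the replicate number as a block the member counts were unchanged at 3, 2, 8, 7 and 4. The numbers do not show pairing, since same-numbered libraries deviated with correlations between -0.06 and 0.08. Upper quartile scaling and library size alone moved the median of all genes with dehydration to between -0.22 and -0.17 on the log2 scale. Higher genes were then 33.4% and 33.5% of the calls in Col-0 (46.1% with TMM) and 36.5% and 36.4% in enap1-1enap2 (47.1%). Over the other scalings, filters, DESeq2, the block and single libraries left out, no log2 fold change of a called member changed sign. Counted for each member, contrast and setting, 13 values lost and 3 gained a call. The losses were all in HSP17.6A, HSP21 and HSP23.6-MITO. Other limits moved calls too. With adjusted p alone, AT2G29500 was added with dehydration in both genotypes, AT1G59860 (lower) in the mutant and HSP17.6A between the genotypes under dehydration. A log2 limit of 1.5 dropped HSP17.6A under mock and ATHSP22.0 under dehydration, and in a fit of only its 4 libraries HSP21 in Col-0 did not pass the filter. Of the 40 group levels, 12 moved by more than 1 SD with library size alone. With a pseudocount of 0.1, only 1 of the 5 genes most alike remained.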
